A study of Mus musculus with 12 samples.

Results

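The clustered protocadherin genes of the mouse were followed in RNA of the hippocampus. They were taken as every gene of the count table whose mouse symbol, found through its Entrez ID, is Pcdha, Pcdhac, Pcdhb, Pcdhga, Pcdhgb or Pcdhgc with a number. There were 58 such genes among the 27179 gene IDs of the table, with 14 in the alpha, 22 in the beta and 22 in the gamma cluster. Of these, 56 passed the filter on low counts (a CPM of 0.2 or more in 2 or more mice, where CPM is the count of a gene scaled to a library of 1000000 counts) and were tested. The tissue came from 12 mice aged 3 months in 4 groups of 3, which were female WT, male WT, female Nell-1+/6R and male Nell-1+/6R. Nell-1+/6R mice carry a loss-of-function allele of Nell1, induced with the mutagen ENU, beside a working copy, inherited in all cells, and the WT mice were littermates. Each library came from bulk hippocampal tissue, so a lower level may reflect fewer cells of a type or less RNA per cell, which cannot be told apart here.

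Clustered protocadherins are cadherin-like proteins of the neuronal surface that bind the same isoform on a facing membrane. In the alpha and gamma clusters each isoform has its own promoter and its own large first exon, which is spliced to constant exons shared by the whole cluster, while a beta gene is mostly a single exon. A neuron switches on a small and largely random set of the alternate isoforms, through CTCF and cohesin loops to distant enhancers and through promoter methylation, and the resulting surface code is known for letting branches of a neuron avoid each other. The C-type isoforms (Pcdhac1, Pcdhac2, Pcdhgc3, Pcdhgc4 and Pcdhgc5) are used more regularly across neurons, and a bulk library averages over all these cells.

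All 58 genes had at least 3 counts over the 12 mice, but a pair of them fell below the filter. Pcdha4 had 3 counts in total, a single count each in replicate 2 of the female Nell-1+/6R mice and replicates 2 and 3 of the female WT mice, and 0 in the other mice. Pcdhb1 had 14 counts, between 0 and 2 per mouse. Pcdha8 passed the filter with 27 counts, between 0 and 5 per mouse, and Pcdhb21 with 91 counts, between 1 and 13. A count of 0 in a library allows up to 3 counts as a one-sided limit, so these genes were at or near the limit of detection and are not shown to be silent.

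The constant exons set how the alpha and gamma values can be read. In the GENCODE M21 gene models, the exon sequence that belongs to a single gene made up 8.56% (Pcdha4) to 62.0% (Pcdha11) of the exons of alternate alpha members, 33.2% (Pcdhga4) to 68.2% (Pcdhga12) in gamma A, and 45.4% (Pcdhgb1) to 68.5% (Pcdhgb5) in gamma B. In the beta cluster it made up 90.3% to 100%. Pcdha4 contains the same constant exons as every other alpha member and still had 3 counts, so reads on shared exons were not given to each gene that holds them. Of its 5768 exon bases, 2410 also lie in the annotated read-through gene Gm42416 (Gm37013 in RefSeq), which was listed with 0 counts in all mice. Only 494 bases of Pcdha4 lie in no other gene of these models, and its level per length is given over them. Which of its bases the counting used was not tested. Sequence found at another place of the transcripts, as stretches of 50 bases (the read length), covered at most 26.7% of the own sequence of an alternate alpha member (Pcdha6), 11.99% of a beta member (Pcdhb12), 16.9% of a gamma B member (Pcdhgb1) and 0.0600% of a gamma C-type member. The counts of the alternate alpha members are thus the most exposed to reads that match several places, and those of the C-type members the least. All members lie on the forward strand of chromosome 18 (GRCm38.p6), from Pcdha1 (start 36930285) to Pcdhgc5 (end 37841873).

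Levels of different genes were compared only per length, as CPM over the library total per kilobase of own exon sequence. The gamma C-type isoforms were the highest of all. Pcdhgc3, an isoform known for promoting dendrite branching in the cortex, stood at 26.9 ± 1.84 (SD, n = 12). Pcdhgc5, which is known for binding GABA-A receptors, stood at 16 ± 0.760. The ranges over the 12 mice were 24.4 to 30.8 for Pcdhgc3 and 15.0 to 17.6 for Pcdhgc5, so these genes did not overlap with each other. The next gene, Pcdhga4 at 8.56 ± 1.44, did not overlap with Pcdhgc5 either. From Pcdhga4 downwards every gene overlapped in range with the next one in the order. The third gamma C-type isoform, Pcdhgc4, which is known for the survival of cortical interneurons, stood much lower at 2.90 ± 0.292, in place 17 of 58.

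The alpha C-type pair was also unequal. Pcdhac2, known for the spacing of serotonergic axons, stood at a level per length of 6.45 ± 1.69, in place 4. Pcdhac1 stood at 0.699 ± 0.210, in place 41, within the range of the alternate alpha members. Pcdhac2 alone held 39.3% to 49.0% of the summed level per length of the alpha cluster without Pcdha4. The C-type isoforms together held 33354 counts, or 41.8% of all counts of members.

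Among the alternate isoforms the gamma A class was the highest, with a median level per length of 3.74 over its 12 members, against 2.08 over 7 gamma B, 0.964 over 22 beta and 0.568 over 12 alternate alpha members. The highest alternate gamma members were Pcdhga4, Pcdhga8 (4.62 ± 1.15) and Pcdhga6 (4.22 ± 0.711). The lowest were Pcdhgb5 (0.764 ± 0.156) and Pcdhgb4 (1.17 ± 0.264). In the beta cluster Pcdhb9 led with 5.35 ± 0.484, followed by Pcdhb17 (2.79 ± 0.336) and Pcdhb20 (2.78 ± 0.360), with Pcdhb21 (0.134 ± 0.0713) and Pcdhb1 (0.0336 ± 0.0245) at the low end. In the alpha cluster Pcdha12 led with 1.71 ± 0.433, followed by Pcdha10 (0.784 ± 0.209) and Pcdha3 (0.749 ± 0.209), with Pcdha8 (0.0697 ± 0.0498) and Pcdha4 (0.0382 ± 0.0694) lowest. The level did not follow the order along the chromosome closely. Spearman's rho between place and level across genes, a description over genes that share libraries, was 0.38 over the 12 alternate alpha members, -0.024 over the 22 beta, 0.056 over the 12 gamma A and 0.14 over the 7 gamma B members. Over the whole exon length in place of the own sequence, Pcdhgc3 and Pcdhgc5 kept places 1 and 2, while Pcdhb9 moved from place 5 to 3, Pcdhb17 from 18 to 6 and Pcdhb20 from 19 to 7.

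**Figure D1:**
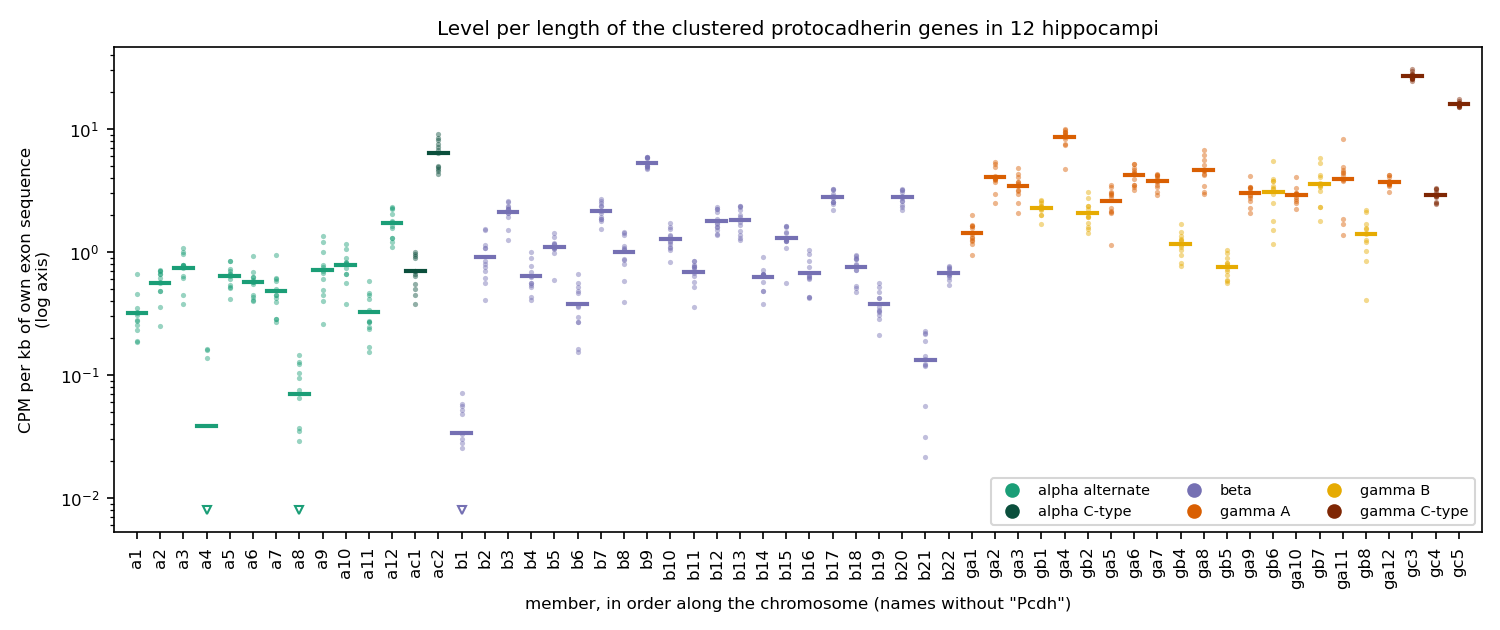
Level of each of the 58 genes in order along the chromosome, as CPM over the library total per kilobase of exon sequence of its own, on a log axis. Each dot is a mouse, each bar the mean over the 12 mice and each open triangle at the bottom marks a gene with mice at 0; Pcdhgc3 and Pcdhgc5 stand above all others, and Pcdha4, Pcdha8, Pcdhb1 and Pcdhb21 below.

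As sums, the gamma cluster held 55878 counts (70.0% of all counts of members), the beta cluster 17717 (22.2%) and the alpha cluster 6221 (7.79%). CPM values from here on are scaled with edgeR's TMM factors. The summed CPM of the gamma cluster was 358 ± 17.4 in WT and 349 ± 17.0 in Nell-1+/6R (SD, 6 mice each), with ranges of 328 to 381 and 325 to 374. The beta cluster was at 113 ± 11.1 and 110 ± 10.4. The alpha cluster was at 39.1 ± 6.36 and 39.4 ± 11.1. The ratio of Nell-1+/6R to WT was 0.974 for gamma, 0.967 for beta and 1.01 for alpha, and in each cluster the difference between the means was smaller than the SD within a genotype. The clusters differed in how evenly the mice shared them. The highest mouse was 1.17 times the lowest in the gamma sum, 1.37 times in the beta sum and 1.92 times in the alpha sum, where male Nell-1+/6R replicate 2 was lowest (29.0) and male Nell-1+/6R replicate 3 highest (55.6).

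The main question of the design is whether the loss of a Nell1 copy changed these genes. In the Nell-1+/6R mice Nell1 itself was lower, with a lowest, median and highest CPM of 17.2, 19.1 and 20.8 against 30.6, 35.9 and 44.0 in the WT mice, a log2 fold change of -0.93 ± 0.080 (SE; edgeR, adjusted p = 0.00015), without overlap. No clustered protocadherin gene passed the test between genotypes. In the quasi-likelihood test of edgeR, fitted with sex and genotype, 0 of 56 members had an unadjusted p under 0.05, where 3.26% of all 17937 genes tested did. Limma-voom and DESeq2 also gave 0 members at that p. Past the thresholds of p under 0.05 and a fold change above 1.5 there were 0 members against 1.46% of all genes, and with an adjusted p under 0.05 there were 0 against 0.0390%. In 0 members did the 6 mice of a genotype all lie above or below the 6 of the other, where 0.151% of all genes did so. The median log2 fold change over the 56 members was -0.028, against -0.00076 over all genes, with 21 members above 0 and 35 below. By sex, the female mice had 15 members above 0 and 41 below (median -0.10, against -0.0044 over all genes) and the male mice 30 above and 26 below (median 0.039, against 0.0021).

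Pcdhgc3 and Pcdhgc5, which had the most counts of all members, set the narrowest limits on a genotype difference. Pcdhgc5 had a lowest, median and highest CPM of 81.6, 86.8 and 97.8 in WT and 84.0, 87.8 and 93.0 in Nell-1+/6R mice. The genotypes overlapped fully, and the log2 fold change was -0.0037 with a 95% interval from -0.12 to 0.11. Pcdhgc3 was at 83.2, 89.8 and 105 in the WT and 85.6, 89.8 and 96.0 in the Nell-1+/6R mice, with a log2 fold change of -0.030 (-0.16 to 0.099). Pcdhgc4 was at 8.63, 10.3 and 11.3 in the WT and 8.79, 9.88 and 11.2 in the Nell-1+/6R mice, with -0.041 (-0.25 to 0.17). The alpha C-type isoforms were less tightly bounded. Pcdhac2 was at 14.4, 20.5 and 24.2 in the WT and 12.8, 18.1 and 29.0 in the Nell-1+/6R mice, with -0.0020 (-0.44 to 0.43), and Pcdhac1 had -0.075 (-0.61 to 0.46).

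For 34 of the 56 tested members the whole 95% interval lay within a 1.5-fold change in either direction, and for 53 within a 2-fold change. Within 1.5-fold lay 3 of 3 gamma C-type, 11 of 12 gamma A, 3 of 7 gamma B, 13 of 21 beta, 1 of 2 alpha C-type and 3 of 11 alternate alpha members. The widest interval, that of Pcdha8 (-1.03 to 1.96), rested on 27 counts. Pcdhga11 had a wide interval too, from -0.74 to 0.84, on 1645 counts.

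The 5 members with the smallest p for genotype were Pcdhga6, Pcdhb18, Pcdhga1, Pcdhgb4 and Pcdha1, all alternate isoforms and all with an adjusted p of 0.9995 (edgeR). Pcdhga6 had a lowest, median and highest CPM of 9.27, 12.1 and 13.7 in the WT and 8.44, 9.62 and 12.4 in the Nell-1+/6R mice, a log2 fold change of -0.24 ± 0.13 (SE, unadjusted p = 0.081). Pcdhb18 was at 3.55, 4.24 and 4.83 against 2.30, 3.17 and 4.59, with -0.33 ± 0.18 (unadjusted p = 0.083). Pcdhga1 was at 3.82, 5.25 and 6.50 against 2.99, 4.29 and 5.31, with -0.25 ± 0.14 (unadjusted p = 0.084). In each of these genes the genotypes overlapped, with the Nell-1+/6R median the lower of the pair. Pcdhgb4 had -0.29 ± 0.17 (unadjusted p = 0.11), and Pcdha1, the only one of the 5 with a higher Nell-1+/6R median, had 0.50 ± 0.30 (unadjusted p = 0.11) on 5 to 23 counts per mouse. Leaving out a mouse brought 2 members under an unadjusted p of 0.05 without female Nell-1+/6R replicate 3 (Pcdhb18, Pcdhga1), 2 without male Nell-1+/6R replicate 1 (Pcdhga6, Pcdhgb4), 2 without male Nell-1+/6R replicate 3 (Pcdhb18, Pcdhga6) and 1 without male WT replicate 1 (Pcdhga6), and 0 without any other mouse. Over all genes, the runs with a member had 914 of 17855, 456 of 17851, 554 of 17881 and 651 of 17896 genes at that p, in the same order.

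**Figure D2:**
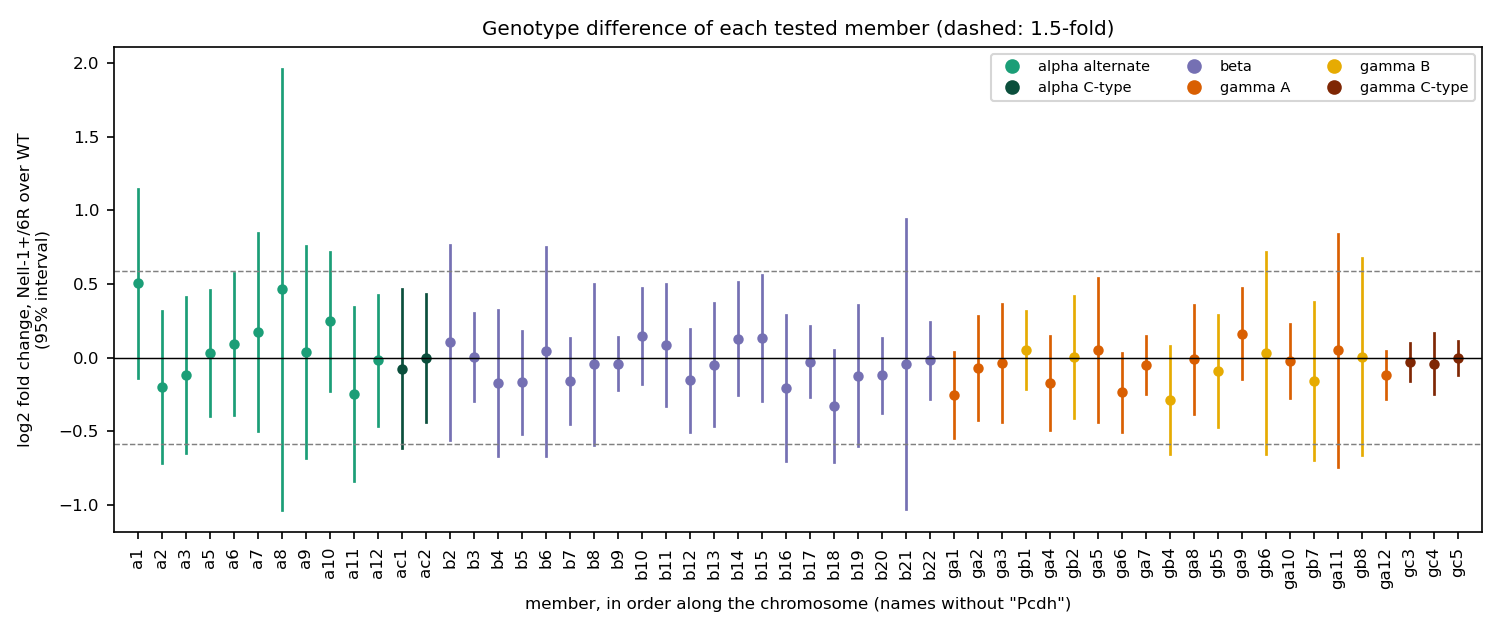
Log2 fold change of Nell-1+/6R over WT for the 56 tested genes in order along the chromosome, from edgeR with sex as a covariate. Bars are 95% intervals and dashed lines mark a 1.5-fold change; all bars cross 0, and they are narrowest for Pcdhgc5, Pcdhgc3, Pcdhga12 and Pcdhb9.

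Between the sexes, 5 of 56 members had an unadjusted p under 0.05 in edgeR, where 4.72% of all genes did, and 0 had an adjusted p under 0.05, where 0.0335% did. Of the 5, Pcdhga7, Pcdhga10, Pcdhga1 and Pcdhga8 were higher in males and Pcdhb3 was lower. Pcdhga7 had a lowest, median and highest CPM of 8.85, 10.6 and 12.3 in the 6 females and 11.5, 13.0 and 13.4 in the 6 males, a log2 difference of 0.27 ± 0.093 (SE, unadjusted p = 0.011, adjusted p = 0.87). Pcdhga10 was at 5.87, 6.94 and 7.78 in females and 7.03, 8.15 and 10.5 in males, with 0.29 ± 0.12 (unadjusted p = 0.028, adjusted p = 0.87). Pcdhb3 was at 8.34, 8.72 and 10.03 in females and 4.75, 7.69 and 8.53 in males, with -0.34 ± 0.14 (unadjusted p = 0.027, adjusted p = 0.87). The sexes overlapped in all 3 genes. The count of 5 fell to 3 without any of female WT replicate 1, 2 or 3 or male WT replicate 3, and Pcdhga7 was under the unadjusted p of 0.05 whichever mouse was left out. In the runs with 3 members, all genes gave 791 of 17892, 606 of 17861, 1365 of 17861 and 867 of 17865, in the same order.

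Within the females, 3 of 56 members had an unadjusted p under 0.05 between genotypes, where 2.84% of all genes did, and 0 an adjusted one, where 0.0167% did. All 3 were lower in Nell-1+/6R, and 1 of them, Pcdha11, also passed the fold change of 1.5, where 1.56% of all genes passed both thresholds. Pcdhb20 had a CPM of 10.02, 11.3 and 11.7 in female WT replicates 1, 2 and 3 and of 7.97, 7.99 and 9.84 in female Nell-1+/6R replicates 1, 2 and 3, without overlap (log2 fold change -0.35 ± 0.15, SE, edgeR, unadjusted p = 0.031, adjusted p = 0.998). Pcdhgb4 was at 4.77, 5.95 and 3.41 in the WT and 3.99, 2.93 and 2.69 in the Nell-1+/6R females, which overlapped (-0.55 ± 0.23, unadjusted p = 0.032). Pcdha11 was at 2.69, 1.93 and 2.18 against 1.23, 0.733 and 2.05, also with overlap (-0.75 ± 0.33, unadjusted p = 0.039). In 3 of 56 members (Pcdhb20, Pcdhga6 and Pcdhgc5) all 3 Nell-1+/6R females lay below the 3 WT females, and in 0 above, where 6% of all genes had no overlap in either direction. The count of 3 at an unadjusted p under 0.05 became 0 without female Nell-1+/6R replicate 2, 1 without female WT replicate 1 and 1 without female WT replicate 3. All genes gave 351 of 17885, 344 of 17892 and 620 of 17861 in these runs, in the same order.

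Within the males, 0 of 56 members had an unadjusted p under 0.05 in edgeR, where 3.37% of all genes did, and 0 an adjusted one, where 0.0167% did. With the fold change of 1.5 as well, 0 members passed, against 2.03% of all genes. Limma-voom gave 1 (Pcdhb14) and DESeq2 0. The smallest p belonged to Pcdhb14, at 3.34, 5.67 and 5.80 in male WT and 6.36, 5.88 and 8.31 in male Nell-1+/6R replicates 1, 2 and 3 (0.47 ± 0.22, unadjusted p = 0.058), followed by Pcdha10 (0.60 ± 0.31, unadjusted p = 0.070) and Pcdhb7 (-0.32 ± 0.19, unadjusted p = 0.11). Pcdhb14 did not overlap between these 3 and 3 mice. It was 1 of 3 such members, with Pcdhb17 and Pcdhgc5, all higher in Nell-1+/6R, where 10.4% of all genes had no overlap. Without male Nell-1+/6R replicate 1 or 2, or male WT replicate 1, 2 or 3, there were 2 members at an unadjusted p under 0.05. All genes gave 516 of 17851, 591 of 17866, 611 of 17896, 575 of 17873 and 571 of 17865 in these runs, in the same order.

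The difference between the genotype effects of males and females was tested as an interaction. It had an unadjusted p under 0.05 in 4 of 56 members, where 3.09% of all genes did, and an adjusted p under 0.05 in 0, as in 0% of all genes. All 4 were positive, that is, the log2 fold change was larger in males. Pcdhb17 had a CPM of 14.8, 11.8 and 15.4 in female WT, 12.7, 10.3 and 11.7 in female Nell-1+/6R, 11.6, 13.1 and 11.9 in male WT and 14.1, 13.1 and 15.4 in male Nell-1+/6R replicates 1, 2 and 3, an interaction of 0.49 ± 0.19 (SE, edgeR, unadjusted p = 0.021, adjusted p = 0.987). Pcdhgc5 had the smallest spread of the 4 and an interaction of 0.23 ± 0.094 (unadjusted p = 0.030, adjusted p = 0.987). Its CPM was 87.9, 92.0 and 97.8 in female WT, 87.1, 84.0 and 84.9 in female Nell-1+/6R, 84.7, 81.6 and 85.8 in male WT and 90.7, 88.6 and 93.0 in male Nell-1+/6R mice, so that the genotypes did not overlap within either sex and lay in opposite order. It was the only 1 of 56 members with that pattern, which 0.323% of all genes had. Pcdha11 (1.11 ± 0.49, unadjusted p = 0.040) and Pcdhb20 (0.47 ± 0.21, unadjusted p = 0.041) were the others. The count of 4 became 0 without replicate 2 of the Nell-1+/6R females or replicate 3 of the Nell-1+/6R males, 1 without female WT replicate 3, and 2 without male Nell-1+/6R replicate 1, male WT replicate 1 or male WT replicate 3. In the same order, all genes gave 611 of 17885, 392 of 17881, 447 of 17861, 550 of 17851, 492 of 17896 and 533 of 17865.

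The spread between mice differed from member to member. The biological coefficient of variation (BCV, edgeR's estimate of the spread between mice beyond counting error) had a median of 0.203 over the 56 members, against 0.138 over all genes tested. Since low genes have a larger BCV, each was also set against the trend of all genes at its level, and 39.3% of members and 27.8% of all genes lay above that trend. Pcdhgc5 had a BCV of 0.0743 and Pcdhgc3 of 0.0809, the smallest of all members, and Pcdhgc4 had 0.111. All 3 lay below the trend, at 0.678, 0.740 and 0.610 times its value, and other members lay further below it, such as Pcdhb22 at 0.540 times. The largest were those of Pcdhga11 (0.435), Pcdha8 (0.424) and Pcdhb21 (0.415). The last pair was low in counts, but Pcdhga11 lay at 2.43 times the trend of its level, a ratio reached by 1.62% of all genes, and Pcdhac2 at 1.74 times the trend, reached by 5%.

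**Figure D3:**
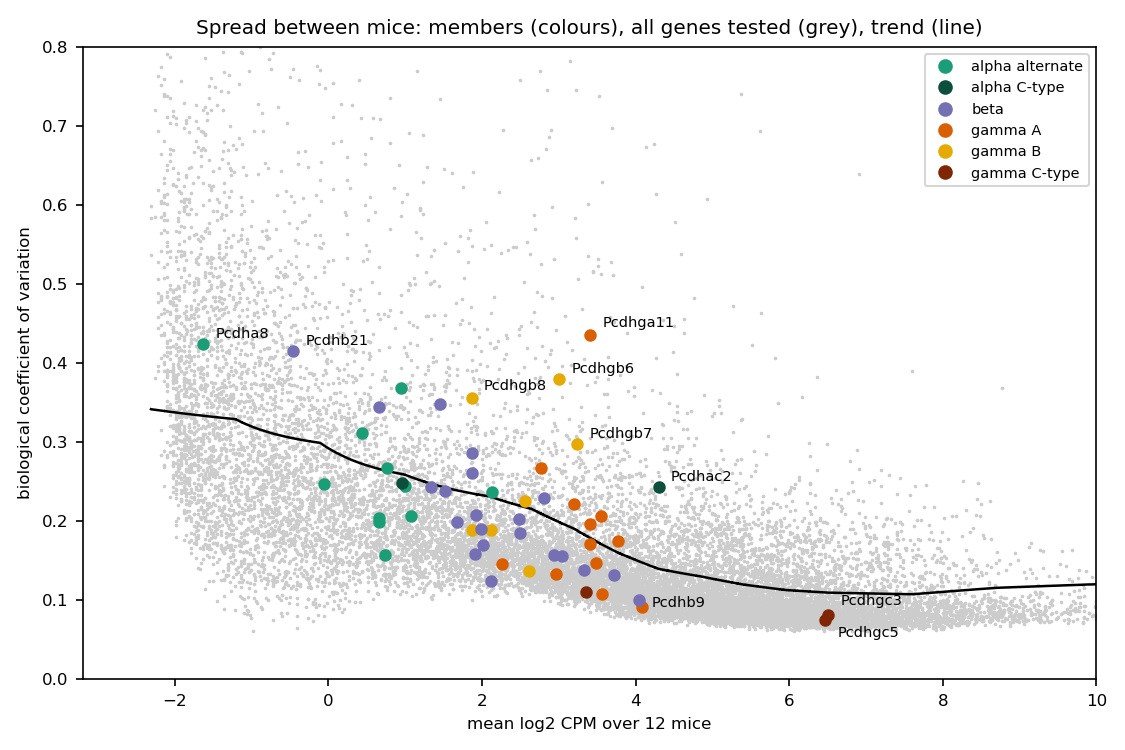
Biological coefficient of variation against mean log2 CPM over 12 mice, for the 56 tested members (coloured by class), all genes tested (grey, those above 0.8 lie off the axis) and the trend over all genes (line). Pcdhga11, Pcdhgb6, Pcdhgb7, Pcdhgb8 and Pcdhac2 lie above the trend, and Pcdhgc3 and Pcdhgc5 below it.

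The spread of Pcdhga11 lay in a few mice of both genotypes. Its CPM was 3.55, 12.9 and 12.5 in female WT, 4.75, 10.1 and 21.5 in female Nell-1+/6R, 11.6, 11 and 10.2 in male WT and 12, 4.55 and 10.9 in male Nell-1+/6R replicates 1, 2 and 3. Replicate 1 of the female WT, replicate 1 of the female Nell-1+/6R and replicate 2 of the male Nell-1+/6R mice lay between 3.55 and 4.75 and all other mice at 10.1 or above. The lowest count was 58, with an upper limit of 75.0 from a two-sided 95% Poisson interval, and the highest was 304, with a lower limit of 271, limits that cover counting error only.

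The same mice stood apart in other gamma genes, which were looked at after the values of Pcdhga11 had been seen. In Pcdhgb7, the neighbour before Pcdhga11, these 3 mice lay between 4.77 and 5.93 CPM and the others between 8.17 and 14.8. In Pcdhgb6 they lay between 2.91 and 4.52 and the others between 6.55 and 13.7, and in Pcdhgb2 between 4.04 and 4.29 against 4.82 to 8.35. In Pcdhgb8, the next gene along, the order was turned. There the 3 mice were the highest, between 4.16 and 5.43 CPM, and the others lay between 0.991 and 4.12. Female Nell-1+/6R replicate 3 was the highest mouse in Pcdhga11, Pcdhgb7, Pcdhgb6 and Pcdhgb2 and the lowest in Pcdhgb8 (0.991) and Pcdhga5 (2.83, with the other mice at 5.24 or above). Pcdhga10, which lies between Pcdhgb6 and Pcdhgb7, did not share this. It was at 6.66, 7.51 and 8.81 in the 3 mice, inside the range of the others (5.87 to 10.5), and Pcdhga12, after Pcdhgb8, ranged from 14.7 to 19.3 over all 12 mice.

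These 3 mice were the 3 lowest in 4 members and the 3 highest in 1, or 5 of 56, where 1.05% of all genes tested (113 lowest and 76 highest) had them at an end. Pcdhga11, which chose the mice, is among the 5. Of the genes with a known chromosome that had these mice at an end, 12 of 184 (6.52%) lay on chromosome 18, where 2.72% of all genes tested lie, and 5 of the 12 were these members. Pcdhga11 shares 0.00% of its own sequence, as stretches of 50 bases, with other places of the transcripts, Pcdhgb7 2.67%, Pcdhgb8 9.18%, Pcdhgb6 11.9% and Pcdhgb2 16.4%. The total counts of the 3 libraries, 16016317, 12656223 and 13865379, spanned much of the range of all 12. Whether reads of these similar genes were placed alike in all mice was not tested.

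**Figure D4:**
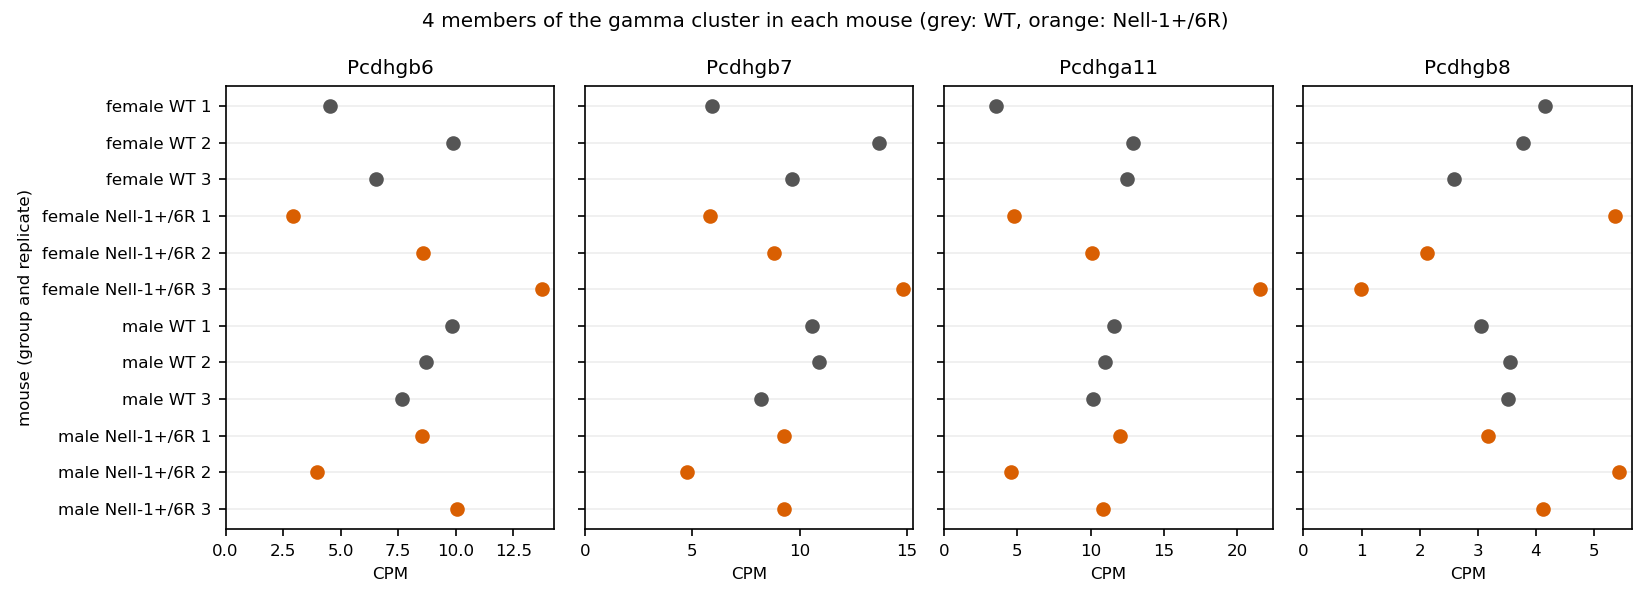
CPM of Pcdhgb6, Pcdhgb7, Pcdhga11 and Pcdhgb8 in each of the 12 mice, with WT in grey and Nell-1+/6R in orange. Female WT 1, female Nell-1+/6R 1 and male Nell-1+/6R 2 are lowest in the first 3 genes and highest in Pcdhgb8, and female Nell-1+/6R 3 is at the opposite end in each.

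**Figure D5:**
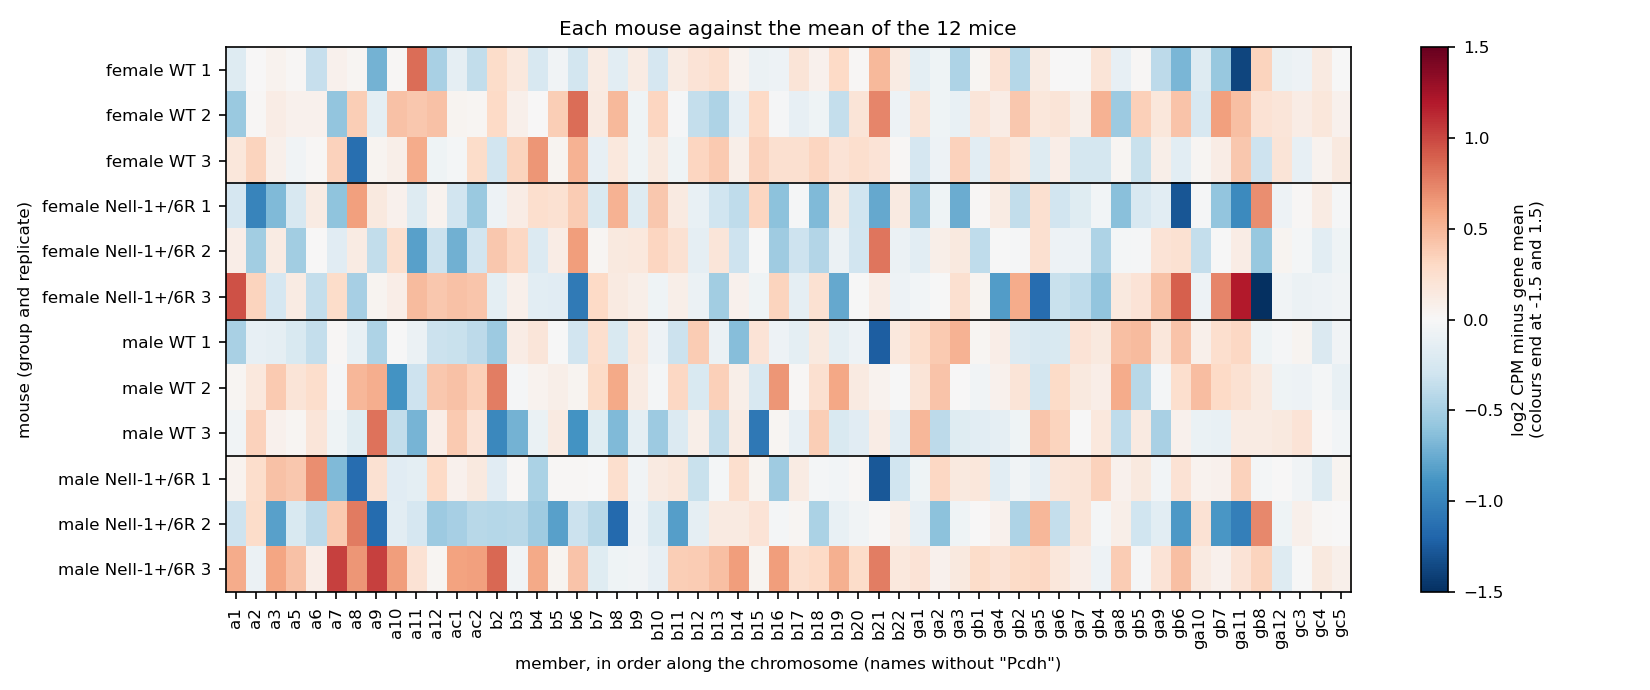
Log2 CPM of each tested member in each mouse minus the mean of that gene over the 12 mice, with the mice grouped by sex and genotype. The columns of Pcdhgc3, Pcdhgc4 and Pcdhgc5 are pale in all mice, and the columns of Pcdhgb6, Pcdhgb7, Pcdhga11 and Pcdhgb8 show the mice that stand apart in those genes.

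Some members moved with the largest axis of variation between the mice. The first principal component of all genes held 24.2% of the variance of log2 CPM. The sign of a component is arbitrary, and it was set so that Pcdhac2 correlated positively. The direction for Pcdhac2 is therefore not a result. Pcdhac2 rose along it, with Pearson's r = 0.79 (permutation test with 100000 draws, p = 0.0020, adjusted over all genes 0.017), Spearman's rho = 0.75 (permutation p = 0.0071, adjusted 0.047) and r = 0.61 without the 2 mice farthest from the median of the component. Pcdhga8 lay in the same direction as Pcdhac2 (r = 0.78, permutation p = 0.0030, adjusted 0.022, rho = 0.81, permutation p = 0.0022, adjusted 0.024, and r = 0.64 without those 2 mice). With r tested over all 17937 genes, 5 of 56 members (8.93%) correlated positively at an adjusted p under 0.05, where 12.6% of all genes did. In either direction 20.8% of all genes passed, 1469 of them negative, against 0 negative members. The median r was 0.24 over the members and -0.083 over all genes. These shares were not tested against each other. Of the 5 members, the other 3, Pcdha7, Pcdhb14 and Pcdhb16, had r of 0.71 to 0.73 and 0.38 to 0.49 without those 2 mice. By rank none of these 3 passed, with rho = 0.65 (Pcdha7, permutation p = 0.025, adjusted 0.10), 0.63 (Pcdhb14, permutation p = 0.032, adjusted 0.12) and 0.73 (Pcdhb16, permutation p = 0.010, adjusted 0.058). The count by rank was thus 2 of 56 members (3.57%), where 10.2% of all genes had a positive rho at an adjusted p under 0.05. The gamma C-type members had r of -0.43 (Pcdhgc3, permutation p = 0.16), -0.14 (Pcdhgc4, permutation p = 0.67) and 0.24 (Pcdhgc5, permutation p = 0.46). The component was computed from all genes, these members included.

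The other genes of the pathway were compared between genotypes in the same way, where 3.26% of all genes had an unadjusted p under 0.05 by edgeR. At that share a list this short often holds none, so a count of 0 does not set it apart. Of 12 nonclustered protocadherins, each with promoters and exons of its own, 0 had an unadjusted p under 0.05 by edgeR. The smallest p belonged to Pcdh11x (CPM 0.255 ± 0.118 in WT and 0.532 ± 0.329 in Nell-1+/6R, SD, n = 6 each, log2 fold change 1.01 ± 0.48, edgeR, unadjusted p = 0.055) and Pcdh18 (-0.31 ± 0.20, unadjusted p = 0.14). Of 23 genes of promoter choice, that is CTCF, cohesin and its loaders, DNA methylation and silencing, 0 had an unadjusted p under 0.05. Tet3, which oxidises methylated DNA, had -0.087 ± 0.053 (unadjusted p = 0.13) and Rad21, a cohesin subunit, -0.11 ± 0.078 (unadjusted p = 0.17). Of 14 partners and processing factors of the proteins, 0 passed, with Marcks, an actin-linked kinase substrate, at -0.13 ± 0.088 (unadjusted p = 0.17) and Cttn, the actin-binding cortactin, at 0.091 ± 0.065 (unadjusted p = 0.18).

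Genes beside the clusters on chromosome 18 were also compared, again beside 3.26% of all genes at an unadjusted p under 0.05 by edgeR. Of 16 neighbours, 1 had an unadjusted p under 0.05 and was lower in Nell-1+/6R, namely Arap3, a GTPase-activating protein, at 15.2 ± 1.39 CPM in WT and 12.8 ± 1.62 in Nell-1+/6R (SD, n = 6 each, log2 fold change -0.25 ± 0.099, edgeR unadjusted p = 0.023, adjusted p = 0.9995). Slc25a2, a mitochondrial carrier gene between the clusters, was at 0.114 ± 0.0349 and 0.208 ± 0.105 CPM (0.78 ± 0.47, unadjusted p = 0.15). The median log2 fold change over the 16 was 0.017.

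The libraries held 10834905 to 16016317 counts. The summed CPM of 7 markers of hippocampal principal neurons was 8717 to 12130 in WT and 9281 to 10780 in Nell-1+/6R mice, most of it from Camk2a (mean 7871 in WT) and Slc17a7 (2029), while Prox1 (23.3) and Spink8 (12.7) were the lowest of the list. For the counts of markers that follow, the share of all genes with an unadjusted p under 0.05 (edgeR) was 3.26%. Of 7 markers of leptomeningeal fibroblasts, 5 had an unadjusted p under 0.05 (edgeR) and lower values in Nell-1+/6R, and 0 passed after adjustment (adjusted p = 0.9995 for each). Their median log2 fold change was -0.93, with summed CPM ranges of 101 to 343 in WT and 61.5 to 358 in Nell-1+/6R. Most of that sum came from Igf2 (mean 143 in WT and 95.9 in Nell-1+/6R), which was not among the 5 (edgeR unadjusted p = 0.16). The 5 included Col3a1 (-1.15 ± 0.30) and Col1a1 (-0.93 ± 0.25). Of 5 markers of thalamus and habenula, 1 passed the test, Slc17a6, which was lower in Nell-1+/6R (-1.23 ± 0.15, edgeR adjusted p = 0.0035), with the others between -0.19 (Tcf7l2) and 0.26 (Tac2). The choroid plexus sum ran from 49.2 to 4554 CPM in WT and from 38.7 to 5061 in Nell-1+/6R mice. Its 5 markers had log2 fold changes from -2.21 to -0.65 (median -1.03), with 0 at an unadjusted p under 0.05 (edgeR). Of 6 GABAergic markers, 2 had an unadjusted p under 0.05, Pvalb (0.29 ± 0.11) and Sst (0.20 ± 0.075), and of 7 principal neuron markers 1, Spink8 (0.25 ± 0.10). The median log2 fold change was 0.068 over the GABAergic and 0.10 over the principal neuron markers, and the latter ran from -0.23 (Prox1) to 0.25 (Spink8). The 5 astrocyte, 5 oligodendrocyte, 4 microglia and 4 endothelial markers had 0 at that p. No marker of any list was at 0. What part such tissue has in the values of the protocadherins was not tested.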

How the data were processed

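RNA of 12 hippocampi was measured by single-read sequencing. The authors deposited raw counts per Entrez gene, not normalized and not pooled. The submitters' processing notes name HISAT2 2.1.0 and featureCounts 2.0.1, with the genome build mm10, while the study's methods give another version of featureCounts and default settings for HISAT2. How strand and reads that fit more than a single gene or place were handled was not given in the sources used here. Reads carry no molecular identifiers. WT titles contain an abbreviation for heterozygous; the genotype field was followed.

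The 17937 genes that reached a CPM of 0.2 in 2 mice or more entered edgeR 4.0.16 (R 4.3.3; TMM factors, quasi-likelihood, sex and genotype, or 4 groups for effects within a sex and the interaction), with Benjamini-Hochberg adjustment over all of them. Log2 fold changes have standard errors and 95% intervals. Limma 3.58.1 and DESeq2 1.42.0 were alternatives, with 2 other scalings, 2 other filters, genotype alone, a replicate block and each mouse left out; the first component as a covariate was added after seeing the data. The fit was checked on simulated data. Lengths came from GENCODE M21, names and positions from RefSeq (GRCm38.p6); Python 3.11.15 was used for the rest. Replicates are separate mice.

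The members and gene lists were chosen with earlier results of these data known. Named are members without enough counts, C-type members, the 3 highest and 2 lowest per length of each cluster's alternate members, those with the smallest p (5 for genotype, 3 for each other contrast), the 3 largest and 2 smallest BCV, members with a mouse that stands apart, Nell1, and 2 genes of each list. Other genes named (Pcdhgb2, Pcdhgb6, Pcdhgb7, Pcdhgb8, Pcdhga5, Pcdhga12, Pcdhb22, Pcdha6, Pcdha7, Pcdhb16, the genes at the ends of the shares of sequence) were chosen after their values were seen.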

Additional observations from a re-analysis of the deposited data

Results flagged for a closer look

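In 9 of the 112 groups examined (56 members, 6 mice of each genotype), a mouse stood apart from the rest by Dixon's criterion on log2 CPM. The nominal rate of 1 in 20 holds for independent groups with a normal spread. These groups hold both sexes and share libraries, and the share over all genes is not given here. Whether the members exceed genes in general was therefore not tested. In the WT mice, Pcdhga11 was low in female WT replicate 1 (3.55 CPM, others 10.2 to 12.9). Pcdhb3 was low in male WT replicate 3 (4.75, others 7.78 to 10.03). Male WT replicate 1 was low in Pcdhb14 (3.34, others 4.87 to 5.80) and in Pcdhb21 (0.0928, a single count, others 0.508 to 0.927).

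In the Nell-1+/6R mice, male Nell-1+/6R replicate 2 was low in Pcdhb8 (1.40 CPM, others 3.17 to 4.83) and in Pcdhb11 (1.62, others 3.19 to 3.88). Pcdhb12 was high in male Nell-1+/6R replicate 3 (7.05, others 4.26 to 5.10). Pcdhga3 was low in female Nell-1+/6R replicate 1 (5.21, others 8.44 to 10.5), and Pcdhga4 in female Nell-1+/6R replicate 3 (7.36, others 11.8 to 15.4).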

How the results depend on the processing

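The counts of members past the thresholds and with an adjusted p under 0.05 for genotype stayed at 0 in every alternative run. At an unadjusted p under 0.05 there was 1 member (Pcdhb18) with the replicate block and 1 (Pcdhb18) with the first component as a covariate, and 0 to 2 with a mouse left out. Over all genes, these runs gave 583 of 17937, 1032 of 17937 and, with a mouse left out, 382 to 914 genes. Same-numbered mice correlated from -0.204 to 0.352 in their deviations and differently numbered mice from -0.365 to 0.36. Of 12 mice, 3 correlated best with their own number. A pairing by number was thus not shown, and this check cannot exclude it. Leaving out a mouse gave 3 to 7 members for sex, 0 to 4 in females, 0 to 2 in males and 0 to 6 for the interaction. Over all genes, the same runs gave 598 to 1687 genes for sex, 344 to 2291 in females, 422 to 716 in males and 380 to 1845 for the interaction. Limma-voom gave 1 member in males and DESeq2 2 for the interaction. The median level per length was 1.35 with own sequence, 1.02 with the whole exon length and 1.42 with 50-base stretches found once in the transcripts (no genome sequence was used). The summed CPM ratios and the log2 fold change of Nell1 (-0.98 to -0.89 with a mouse left out) kept their direction or moved by less than the spread between mice.

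Of the log2 fold changes of 32 named members, none past the adjusted threshold in any alternative run, those given below changed sign. Most were near 0 in the main fit, but they included Pcdhb14 (0.13) and Pcdha3 (-0.12). Limma-voom gave 0.0023 for Pcdha12 and -5.8e-05 for Pcdhga11. Pcdhac2 was at 0.0015 with DESeq2's size factors, 0.0011 with DESeq2 and 0.0039 with genotype alone. Pcdhb3 was at -0.0044 with genotype alone and -0.010 with the first component, where Pcdhga11 was at -0.14. With a mouse left out the ranges that crossed 0 were -0.12 to 0.090 for Pcdha12, -0.26 to 0.028 for Pcdha3, -0.26 to 0.049 for Pcdhac1, -0.14 to 0.099 for Pcdhac2, -0.0064 to 0.23 for Pcdhb11, -0.0047 to 0.21 for Pcdhb14, -0.081 to 0.034 for Pcdhb17, -0.35 to 0.19 for Pcdhb21, -0.089 to 0.064 for Pcdhb3 and -0.16 to 0.16 for Pcdhb8. In the gamma cluster they were -0.073 to 0.059 for Pcdhga10, -0.31 to 0.23 for Pcdhga11, -0.12 to 0.075 for Pcdhga3, -0.11 to 0.075 for Pcdhga8, -0.18 to 0.011 for Pcdhgb5, -0.055 to 0.012 for Pcdhgc3 and -0.026 to 0.027 for Pcdhgc5. The cause was not tested. Depth limits Pcdha4, Pcdhb1, Pcdha8 and Pcdhb21 most.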
